A study of Homo sapiens with 9 samples.

Results

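Transcript levels of H9 cells transfected with a non-silencing siRNA were compared with those of untreated H9 cells. H9 is a long-established human embryonic stem cell line, and the cells of all samples carry the day 3 label. The study reduced TCF7L1 by siRNA, and the comparison described here is between its 2 kinds of control. Of the 9 samples, 3 were untreated (no siRNA), 3 were transfected with a non-silencing siRNA, and 3, transfected with an siRNA against TCF7L1, serve here to estimate the spread and as values set beside the others. Total RNA was measured with 1 array per sample. The sources used here do not give the sequence of the non-silencing siRNA, its dose, the delivery reagent or the day of transfection, and no sample analysed here received the reagent alone, so that siRNA and delivery cannot be told apart. Nothing in the labels says that replicates were separate cultures, so p-values measure only the spread between these samples. The members are the probe sets with a chromosome and exactly 1 gene symbol, 22043 of 29096 that are not controls. Of these, 19516 passed the filter on dim signals and were tested, for 17939 genes, and 2527 did not pass.

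An siRNA is a short double-stranded RNA whose guide strand is loaded into an Argonaute protein and directs the cleavage of matching transcripts. A non-silencing siRNA is designed to match no transcript of the cell, and serves to separate the effect of a targeted knockdown from that of taking up RNA and carrier. Double-stranded RNA can be read as a sign of viral infection by TLR3 in endosomes and by RIG-I, MDA5 and PKR in the cytosol, which leads to interferon and NF-kB target genes in many cell types, while human embryonic stem cells are known for a weak interferon response. Carriers enter through endosomes and lysosomes, and DNA damage or ribosomal stress acts through p53, which controls CDKN1A, the inhibitor of cyclin-dependent kinases.

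The 2 groups were about as alike as the replicates within them. Across all tested probe sets, members or not, the log2 signals of the samples without siRNA correlated at r = 0.9916 to 0.9929. Correlations were 0.9794 to 0.9922 among the samples with the non-silencing siRNA and 0.9795 to 0.996 between the groups. The untargeted gene TCF7L1 had 1473, 1842 and 1667 without siRNA and 1709, 1703 and 1625 in the non-silencing group, a log2 difference of 0.02 (SE 0.10), and 389, 346 and 352 with the siRNA against it. Non-silencing replicate 3 had the narrowest array of the 6. The interquartile range of its log2 signals was 2.79, that of non-silencing replicates 1 and 2 was 3.17 and 2.95, and those of the samples without siRNA were 3.03, 3.16 and 3.09. The median SD between replicates on the log2 scale was 0.103 in the untreated group and 0.136 in the non-silencing group, where 64% of the members varied more.

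No gene passed the test between the groups. Limma called 0 of 22784 probe sets at an adjusted p under 0.05 (0.0% in each direction, among all tested probe sets and among members), and the lowest adjusted p was 0.927. At an unadjusted p under 0.05, limma had 147 members higher with the non-silencing siRNA (0.753% of the 19516) and 257 lower (1.32%), beside 264 (1.16%) and 284 (1.25%) of all 22784 tested probe sets. All signals of one group lay above all of the other in 425 members higher (2.18%) and 933 lower (4.78%) with the non-silencing siRNA, beside 562 (2.47%) and 1001 (4.39%) of all tested probe sets. Neither count exceeds what no difference would give. An unadjusted p under 0.05 is then expected in 5% of tests, and 404 members had one. No overlap is then expected in a share of 0.1, and 6.96% of the members had none. The differences were small. Their median size was 0.09 on the log2 scale, 11 members stood more than 1.5-fold higher and 5 more than 1.5-fold lower, and 0 members differed by 2-fold in either direction. The 95% interval of the difference lay within 1.5-fold either way for 90.9% of the members and within 2-fold for 99.7%, while that of 54 members reached 2-fold. Folds are taken on the scale of log2(signal + 16) and understate the difference of dim genes.

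The small differences followed how bright a probe set was. With the members split into 10 deciles by mean signal, the dimmest decile, with a median signal of 37.1, had a median difference of 0.08 and 71.2% lay above 0. In the 7th decile, with a median signal of 376, the median was -0.06 and 29% lay above 0. Over all members the median was -0.02 and 43.2% lay above 0. The 3 samples with the non-silencing siRNA did not share this pattern. Against the mean of the samples without siRNA, the dimmest decile had medians of -0.08, 0.09 and 0.23 in non-silencing replicates 1, 2 and 3, and the 7th decile had 0.03, -0.05 and -0.18. Replicate 3 was far from 0, replicate 2 nearer, and replicate 1 on the other side. With the interquartile range of each array as a covariate in the fit, the medians of all 10 deciles lay between -0.01 and 0.01. This covariate is computed from the same signals, and an array of narrow range has its dim signals higher or its bright ones lower. The flattening therefore follows largely from how the covariate is defined. Below, "with array spread in the fit" means this added covariate, and some gene lists are set beside the median of the deciles their members come from.

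**Figure D1:**
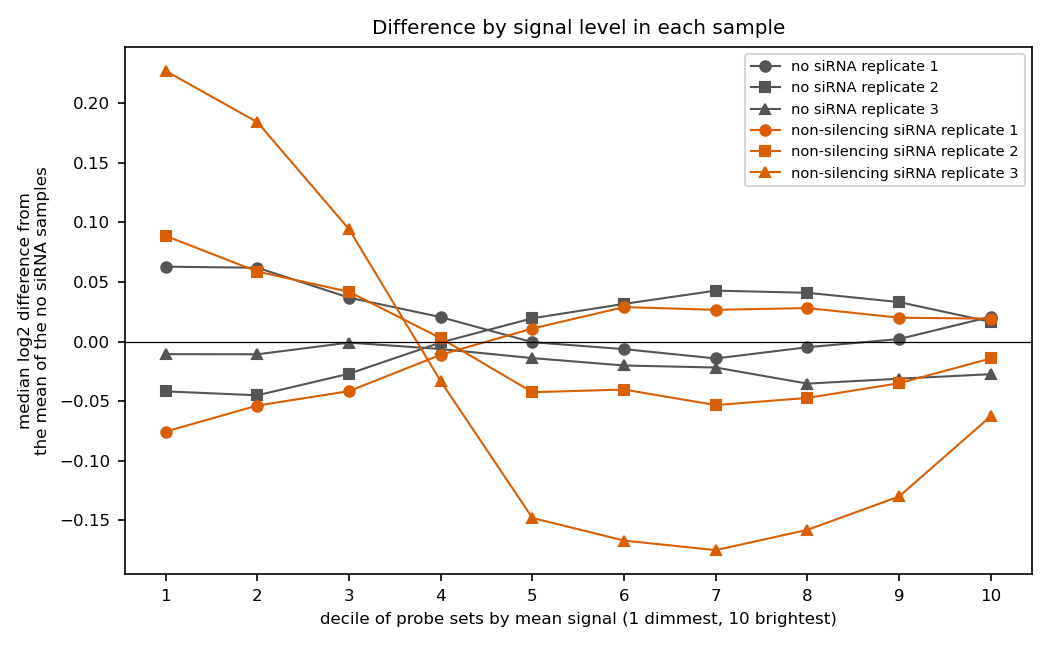
Median log2 difference of each sample from the mean of the 3 samples without siRNA (vertical axis) in each decile of the tested members by mean signal (horizontal axis, dimmest at 1); grey lines are samples without siRNA, orange lines samples with the non-silencing siRNA, and the marker gives the replicate. Non-silencing replicate 3 runs from 0.23 in the dimmest decile to -0.18 in the 7th, while non-silencing replicate 1 runs from -0.08 to 0.03.

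LEFTY2 had the smallest p of all members. LEFTY2 encodes a secreted antagonist that binds Nodal and its co-receptor and is itself induced by Nodal signalling through SMAD2 and SMAD3. Its signals were 145, 194 and 161 without siRNA and 241, 258 and 262 with the non-silencing siRNA. All samples with the non-silencing siRNA lay above all samples without siRNA, and the samples within each group differed by less than the groups. The log2 difference was 0.57 (SE 0.11, 1.48-fold, n = 3 per group, limma p = 0.000288, adjusted p = 0.927), and an exact permutation test of this gene alone gave p = 0.1, the smallest that 20 arrangements of 3 against 3 allow. The exact test gives this same p to any gene whose groups do not overlap, and 1358 members (6.96%) had no overlap. It therefore only restates the absence of overlap in LEFTY2. The difference of LEFTY2 was 0.55 with array spread in the fit and ran from 0.47 to 0.67 over the alternative settings. With the siRNA against TCF7L1, whose comparison with untreated cells uses the same untreated samples, LEFTY2 had 291, 322 and 302. The probe set holds 18 probes and spans chr1:226124298-226129189 on the minus strand (build 37). In RNA from whole cultures, a different share of cells that express a gene and a different RNA level per cell cannot be told apart.

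Of 25 tested genes of the Nodal and TGF-beta pathway, LEFTY2 alone stood higher without overlap (2.18% of all members). Its neighbour and paralogue LEFTY1 had 149, 198 and 209 without siRNA and 223, 216 and 204 with the non-silencing siRNA, which overlap. The difference of LEFTY1 lay in the same direction (0.20, SE 0.12, and 0.23 with array spread in the fit). LEFTY1 had 247, 263 and 264 with the siRNA against TCF7L1. The ligand gene NODAL lay near the floor at 36.9, 37.6 and 31 and at 35.6, 35.1 and 29.2 (-0.05, SE 0.09), and at 95.4, 95.7 and 95.3 with the siRNA against TCF7L1. The co-receptor gene CRIPTO had means of 3092 and 3076, and the target genes PMEPA1 and SMAD7 had differences of 0.08 (SE 0.10) and -0.01 (SE 0.16). TGFBR2, the type II receptor for TGF-beta, stood lower at 228 ± 31.2 against 283 ± 26.7 (SD, n = 3), a difference of -0.30 (SE 0.12, adjusted p = 0.927). Of 25 tested genes of the pathway 10 lay above 0, and the median was -0.01. An unadjusted limma p under 0.05 was had by 1 higher gene (LEFTY2, beside 0.753% of all members) and 1 lower (TGFBR2, beside 1.32%).

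SLC37A2, a sugar-phosphate exchanger of the endoplasmic reticulum, had the next smallest p on the higher side. Its signals were 39.1, 42 and 39.5 without siRNA and 63.7, 53.6 and 63 with the non-silencing siRNA, with no overlap. The log2 difference was 0.43 (SE 0.09, adjusted p = 0.927) and 0.45 with array spread in the fit. SLC37A2 had 50.4, 49.9 and 48.7 with the siRNA against TCF7L1, between the other groups. RAB40AL, which encodes a small GTPase of the Rab family, had 42, 36.9 and 39.8 against 53.6, 47.2 and 63.4, a difference of 0.34 that was 0.33 with array spread in the fit.

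Most of the other genes with small p on the higher side had their most extreme value in non-silencing replicate 3. Among the 20 higher genes named by size or p, replicate 3 was the highest of the group in 16 and replicate 1 the lowest in 16. WT1, a zinc finger transcription factor gene, had 144, 135 and 157 without siRNA and 163, 208 and 261 with the non-silencing siRNA, and its difference of 0.47 (SE 0.16) was 0.28 with array spread in the fit. The olfactory receptor gene OR10H5 had 196, 189 and 185 against 222, 297 and 363, and its difference of 0.56 was 0.36 in that fit. KRTAP9-3, a gene of hair keratin-associated protein, had 20.7, 16.5 and 12.7 against 28.6, 32.1 and 50.9, signals near the floor of the array (0.69, SE 0.19). The largest difference was that of LOC284861 at 0.75 (SE 0.27), with 83.6, 81.8 and 92 against 148, 101 and 246. It was 0.45 without non-silencing replicate 3 and ran from 0.28 to 1.03 over the alternative settings.

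For 3 of the higher genes another probe set of the gene did not share the difference. UBE2K, a ubiquitin-conjugating enzyme gene, had 0.39 (SE 0.11) on a probe set that reads the strand opposite to the gene and -0.06 (SE 0.09) on the probe set that reads the gene, which had means of 2440 without and 2340 with the non-silencing siRNA. RNF185, a ubiquitin ligase gene of the endoplasmic reticulum, had 0.55 (SE 0.16) on a short minus-strand probe set and -0.16 (SE 0.15) on the plus-strand set. FBXW10B, an F-box gene that the annotation calls CDRT1, had 0.71 (SE 0.22) on a probe set of 4 probes and 0.08 (SE 0.13) on one of 23.

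**Figure D2:**
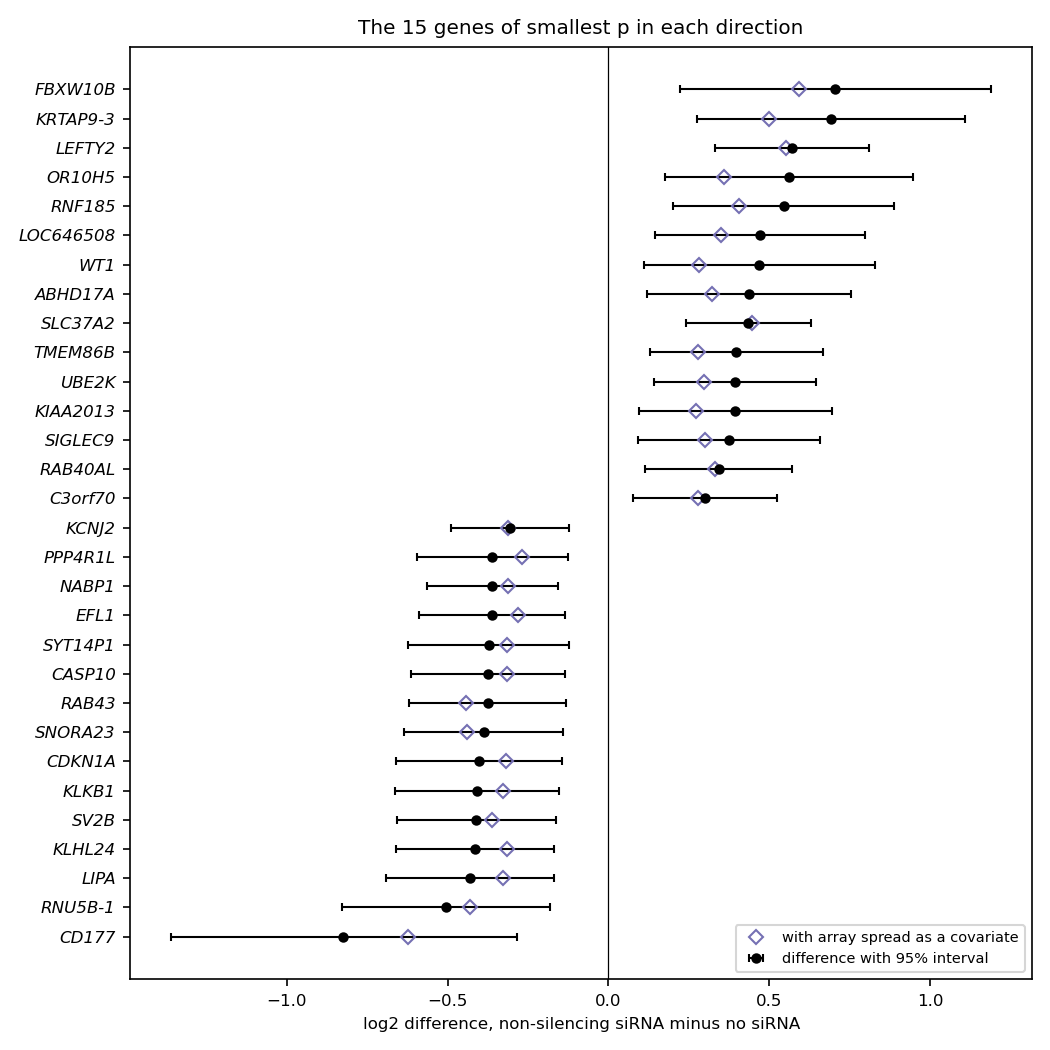
Log2 difference, non-silencing siRNA minus no siRNA (horizontal axis), of the 15 members of smallest unadjusted limma p in each direction; circles with bars are differences with 95% intervals, and open diamonds are the same difference with array spread in the fit. None passed the adjusted threshold. LEFTY2, SLC37A2, RAB40AL and KCNJ2 kept nearly the same difference with array spread in the fit, while that of OR10H5 went from 0.56 to 0.36.

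The smallest p on the lower side belonged to single genes of ion transport, DNA binding and protein turnover, among others. KCNJ2, an inward rectifier potassium channel gene, had 68.3, 64.3 and 63.3 without siRNA and 51.6, 49.1 and 48.7 with the non-silencing siRNA. It had 39, 42.5 and 38.1 with the siRNA against TCF7L1. The groups did not overlap and their replicates lay close together. The difference of KCNJ2 was -0.30 (SE 0.08, adjusted p = 0.927) and -0.31 with array spread in the fit. NABP1, which encodes a single-stranded DNA-binding protein of genome maintenance, had 114, 118 and 122 against 93.9, 93.3 and 78.3 (-0.36, SE 0.09). KLHL24, an adaptor of a cullin ubiquitin ligase, had 428, 430 and 405 against 348, 311 and 279 (-0.42, SE 0.11), and -0.32 with array spread in the fit. Among the 23 lower genes named by size or p, non-silencing replicate 3 was the lowest of its group in 16 and replicate 1 the highest in 19.

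Further members on the lower side were of mixed roles. CASP10, an initiator caspase gene, had 43.3, 40.1 and 39.1 against 30.1, 29.6 and 24 (-0.37, SE 0.11). RAB43, a Rab GTPase gene, had 255, 245 and 293 against 174, 209 and 218 (-0.38, SE 0.11), and -0.44 with array spread in the fit. SNORA23, a small nucleolar RNA gene, had 655, 598 and 689 against 463, 549 and 462 (-0.39, SE 0.11). These genes had groups that did not overlap. SV2B (-0.41), a synaptic vesicle glycoprotein gene, KLKB1 (-0.41), the gene of plasma prekallikrein, and the spliceosomal RNA gene RNU5B-1 (-0.51) also had no overlap. CASP10 and RNU5B-1 lay near or below the medians of the intron control probe sets given above in both groups, and SV2B with the non-silencing siRNA. The most negative difference belonged to the olfactory receptor gene OR52A1 (-0.85, SE 0.39), whose signals without siRNA were 125, 140 and 386, and it ran from -1.13 to -0.37 over the alternative settings.

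**Figure D3:**
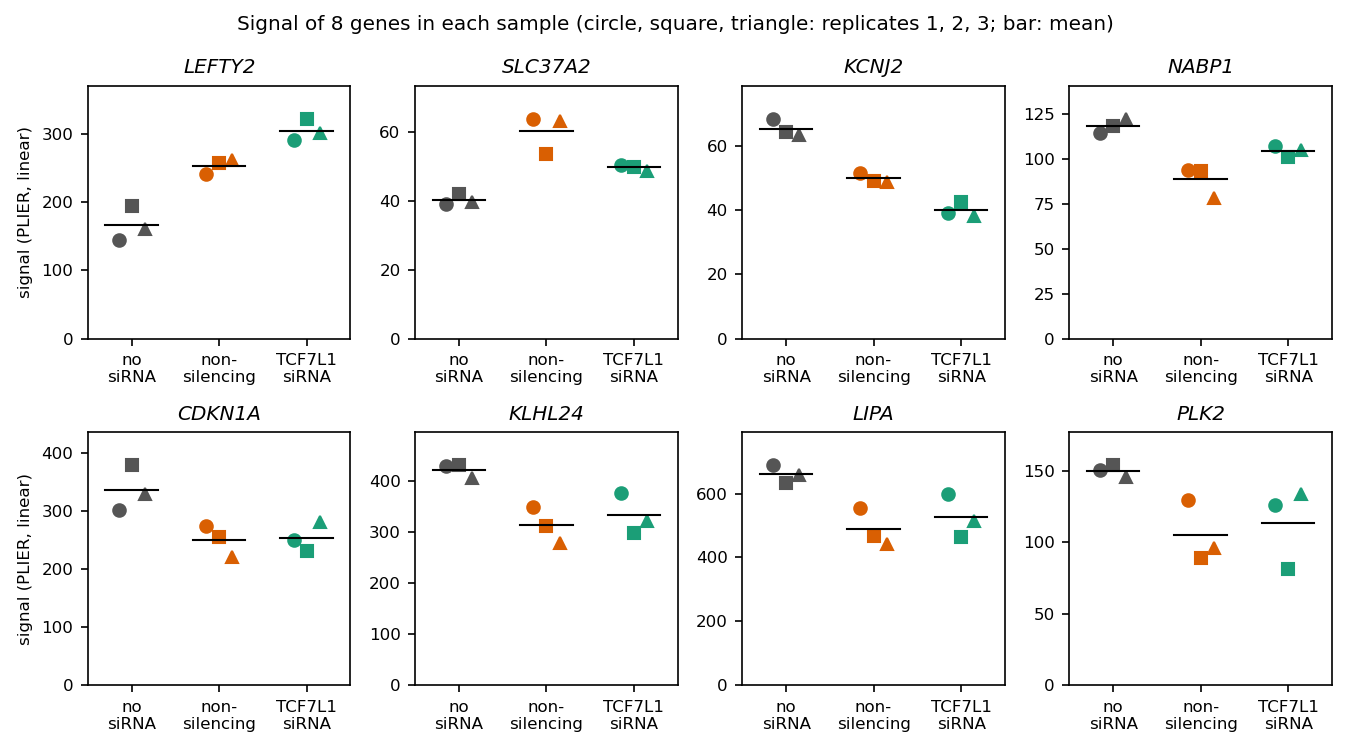
PLIER signal on a linear scale (vertical axis from 0) of 8 genes in each of the 9 samples, by group on the horizontal axis; circles, squares and triangles are replicates 1, 2 and 3, and the bar is the mean. The 8 genes are among those named for a small p or a large difference without overlap. That the 2 control groups do not overlap in any of them reflects this choice (2.18% of all members higher, 4.78% lower). LEFTY2 lay at 145 to 194 without siRNA against 241 to 262 with the non-silencing siRNA, and CDKN1A at 302 to 378 against 221 to 273.

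p53 target genes had the lowest median of the 32 gene lists, a rank they lost with array spread in the fit, where haematopoietic markers (-0.08) and cholesterol genes (-0.06) lay below them (-0.05). CDKN1A had 302, 378 and 328 without siRNA and 273, 255 and 221 with the non-silencing siRNA, with no overlap and with non-silencing replicate 3 the lowest. Its difference was -0.40 (SE 0.12, 1.32-fold higher without siRNA, limma p = 0.00558, adjusted p = 0.927), an exact permutation test of the gene alone gave p = 0.1, the smallest possible, and with array spread in the fit the difference was -0.32. As for LEFTY2, the exact test only restates the absence of overlap. The probe set of CDKN1A spans chr6:36646435-36655116 on the plus strand (build 37) and had 250, 231 and 280 with the siRNA against TCF7L1. PLK2, a polo-like kinase gene, had 151, 154 and 146 against 130, 89.3 and 96.3, a difference of -0.47 (SE 0.17) that was -0.31 with array spread in the fit. ZMAT3, an RNA-binding protein gene, had 200, 225 and 225 against 206, 150 and 133, and here replicate 1 lay among the samples without siRNA (-0.40, SE 0.17, and -0.23 with array spread in the fit). RRM2B, a ribonucleotide reductase subunit gene, had -0.31 (SE 0.11), and POLH, the gene of a translesion DNA polymerase, -0.26 (SE 0.11).

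As a group, 3 of 30 p53 targets lay above 0, where 43.2% of all members did. The median signal of the list was 310, and in the 6th and 7th deciles, with median signals of 265 and 376, 33% and 29% lay above 0. None passed after adjustment, 5 had an unadjusted limma p under 0.05, all lower (1.32% of all members), and 6 had groups that did not overlap, all lower (4.78% of all members). The median difference was -0.15, while the deciles of signal that the members come from had a median of -0.05. By sample the median was 0.00 in non-silencing replicate 1, -0.18 in replicate 2 and -0.25 in replicate 3, and it was -0.05 with array spread in the fit. The pro-apoptotic gene BBC3 was the highest of the list at 0.23 (SE 0.18), and the death receptor gene FAS (0.06, SE 0.09) and BAX (-0.03, SE 0.09) differed by less than their errors. MDM2, the ubiquitin ligase that turns over p53, had means of 1390 without siRNA and 1221 with the non-silencing siRNA (-0.18, SE 0.12). The separate list of apoptosis regulators had 9 of 22 genes above 0, 0 at an unadjusted limma p under 0.05 and a median of -0.08.

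The promoters of CDKN1A and PLK2, the p53 targets described above, are shown to compare their proximal elements; those of STARD4 and IDI1, the sterol genes described next, are shown with them. Each sequence is the 250 bases before the annotated start (RefSeq, GRCh38.p14), and capitals mark matches of GGGCGG, the core of Sp1 sites, on either strand, and the p53 half-site consensus. The positions are chr6:36678464-36678713 on the plus strand for CDKN1A, and on the minus strand chr5:58460087-58460336 for PLK2, chr5:111512536-111512785 for STARD4 and chr10:1056705-1056954 for IDI1.
CDKN1A: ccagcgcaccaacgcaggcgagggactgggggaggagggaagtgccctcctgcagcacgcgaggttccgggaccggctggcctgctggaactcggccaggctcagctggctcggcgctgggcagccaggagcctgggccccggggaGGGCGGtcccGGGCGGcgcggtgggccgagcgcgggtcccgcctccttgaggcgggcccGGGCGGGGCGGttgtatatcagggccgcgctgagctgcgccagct
PLK2: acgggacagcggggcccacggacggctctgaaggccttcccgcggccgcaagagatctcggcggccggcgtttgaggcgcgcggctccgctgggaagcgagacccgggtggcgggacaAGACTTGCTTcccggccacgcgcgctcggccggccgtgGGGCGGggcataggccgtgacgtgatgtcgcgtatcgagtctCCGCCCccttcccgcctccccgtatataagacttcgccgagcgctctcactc
STARD4: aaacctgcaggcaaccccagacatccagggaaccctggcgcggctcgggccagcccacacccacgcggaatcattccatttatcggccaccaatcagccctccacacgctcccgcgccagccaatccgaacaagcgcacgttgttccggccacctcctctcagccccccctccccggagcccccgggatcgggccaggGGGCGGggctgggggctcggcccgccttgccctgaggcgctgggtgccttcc
IDI1: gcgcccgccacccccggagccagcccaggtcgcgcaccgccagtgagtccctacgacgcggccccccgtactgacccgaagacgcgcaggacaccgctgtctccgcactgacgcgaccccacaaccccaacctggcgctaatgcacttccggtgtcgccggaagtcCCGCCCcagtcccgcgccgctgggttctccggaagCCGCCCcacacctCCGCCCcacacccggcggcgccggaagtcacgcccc
CDKN1A holds 4 matches of GGGCGG, the last pair sharing 1 base, PLK2 holds 2, STARD4 holds 1 and IDI1 holds 3, and 42.6% of all 35116 promoters of this length hold at least 1. Within these 250 bases PLK2 alone of the 4 holds a p53 half-site match, as do 5.57% of all promoters. Bases farther upstream were not searched, so the absence of a match in CDKN1A covers this stretch only. STARD4 holds 2 matches of CCAAT, the core of NF-Y sites, which 32% of promoters hold. No match of TCACNCCAC, a sterol element, is in the 250 bases of STARD4 or IDI1 on either strand, and 0.883% of all promoters hold one. LEFTY2 and LEFTY1 had no entry in the promoter table.

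Genes of cholesterol synthesis and uptake, which SREBP2 turns on when sterols are low, had a median of -0.11. Their signal deciles had a median of -0.05. STARD4, a sterol transfer protein gene, had 852, 739 and 759 without siRNA and 717, 634 and 595 with the non-silencing siRNA, with no overlap (-0.27, SE 0.10, adjusted p = 0.927). IDI1, the isopentenyl diphosphate isomerase gene, had 1429, 1225 and 1221 against 1239, 1099 and 1026, where the groups overlap (-0.20, SE 0.10). Of 26 genes 5 lay above 0, and PMVK was the highest at 0.12 (SE 0.09). STARD4 alone had an unadjusted limma p under 0.05 (1.32% of all members lower). The median was 0.02, -0.14 and -0.22 in non-silencing replicates 1, 2 and 3, and -0.06 with array spread in the fit. INSIG1, which retains the SREBP complex in the endoplasmic reticulum, had -0.20 (SE 0.11) and did not pass. Fatty acid synthesis and storage genes had 5 of 18 above 0 and a median of -0.04, with ACSS2 the lowest at -0.47 (SE 0.23).

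Lysosome and autophagy genes also had medians below 0. LIPA, the lysosomal acid lipase that frees cholesterol from its esters, had 688, 634 and 657 without siRNA and 554, 466 and 442 with the non-silencing siRNA, with no overlap. Its difference was -0.43 (SE 0.12, 1.35-fold higher without siRNA, adjusted p = 0.927) and -0.33 with array spread in the fit, and it had 600, 463 and 514 with the siRNA against TCF7L1. Of 34 endosome and lysosome genes 8 lay above 0, and LIPA alone had an unadjusted limma p under 0.05 (1.32% of all members lower). In 4 the groups did not overlap, all lower (4.78% of all members). The median of the list was -0.07, beside -0.05 for its signal deciles. It was 0.01, -0.09 and -0.16 in non-silencing replicates 1, 2 and 3 and -0.03 with array spread in the fit. NPC1, the exporter of lysosomal cholesterol, had -0.13 (SE 0.09), the membrane protein gene LAMP1 -0.07 (SE 0.09) and TFEB, a master transcription factor of lysosomal genes, 0.07 (SE 0.11). Of 18 autophagy genes 4 lay above 0, and 6 had groups that did not overlap, all lower (4.78% of all members). Their median was -0.12, beside -0.05 for their signal deciles. The receptor gene OPTN was the only one at an unadjusted limma p under 0.05 (1.32% of all members lower). It had 110, 99.2 and 95.9 against 94.9, 78.9 and 79.8 (-0.23, SE 0.10). The autophagy median was 0.02, -0.14 and -0.21 in non-silencing replicates 1, 2 and 3 and -0.04 with array spread in the fit.

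Genes of double-stranded RNA sensing were not higher with the non-silencing siRNA past the test. RIGI, which encodes RIG-I, had 146, 133 and 144 without siRNA and 140, 114 and 103 with the non-silencing siRNA (-0.23, SE 0.13). IFIH1, the MDA5 gene, lay near the floor at means of 29.6 and 30.5, TLR3 had 86.1 and 77.1, and EIF2AK2, the PKR gene, had 935 and 852. These groups overlap in each case. Of 21 tested sensors and adaptors 10 lay above 0, 0 had an unadjusted limma p under 0.05, and the median was -0.05. In 1 the groups did not overlap (lower, as in 4.78% of all members). All 21 intervals lay within 2-fold. TLR7, TLR8 and OAS3 were too dim to test, with means of 15.7 to 31.5.

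Interferon-stimulated genes did not stand higher as a group either. Of 27 tested, 12 lay above 0 and the median was -0.04. The 3 with an unadjusted limma p under 0.05 were all lower (1.32% of all members). HERC5, the ligase that attaches ISG15, had 228, 205 and 192 against 187, 143 and 142 (-0.38, SE 0.15), IFIT5, an RNA-binding protein gene, had 79.7, 91.6 and 79.4 against 75.3, 64.9 and 55.3 (-0.30, SE 0.11), and the antiviral GTPase gene MX2 had -0.25 (SE 0.11). With array spread in the fit these were -0.25, -0.20 and -0.16. ISG15 itself had 143, 108 and 117 against 140, 142 and 147 (0.21, SE 0.12), and MX1 had 68.1, 52.6 and 60 against 65.2, 80.7 and 66.9 (0.19, SE 0.11), both with overlap. The interval of OASL reached highest, with an upper end of 0.57 on the log2 scale, so that all 27 intervals lay below a 2-fold rise. IFNB1, IFIT2, IFIT3, IFI44, RSAD2, CXCL10 and GBP1 were too dim to test in both groups, with means between 11.3 and 20.5. The median of the list was 0.02 with array spread in the fit. NF-kB and inflammatory genes had 9 of 18 above 0, 0 at an unadjusted limma p under 0.05 and a median of 0.01, with the chemokine gene CCL2 at -0.29 (SE 0.17) and the inhibitor gene NFKBIA at -0.12 (SE 0.14). The small RNA machinery that handles siRNAs had 5 of 20 above 0 and a median of -0.07, with DICER1 at 0.12 (SE 0.09), AGO2 at -0.12 (SE 0.11) and DROSHA at -0.13 (SE 0.10).

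**Figure D4:**
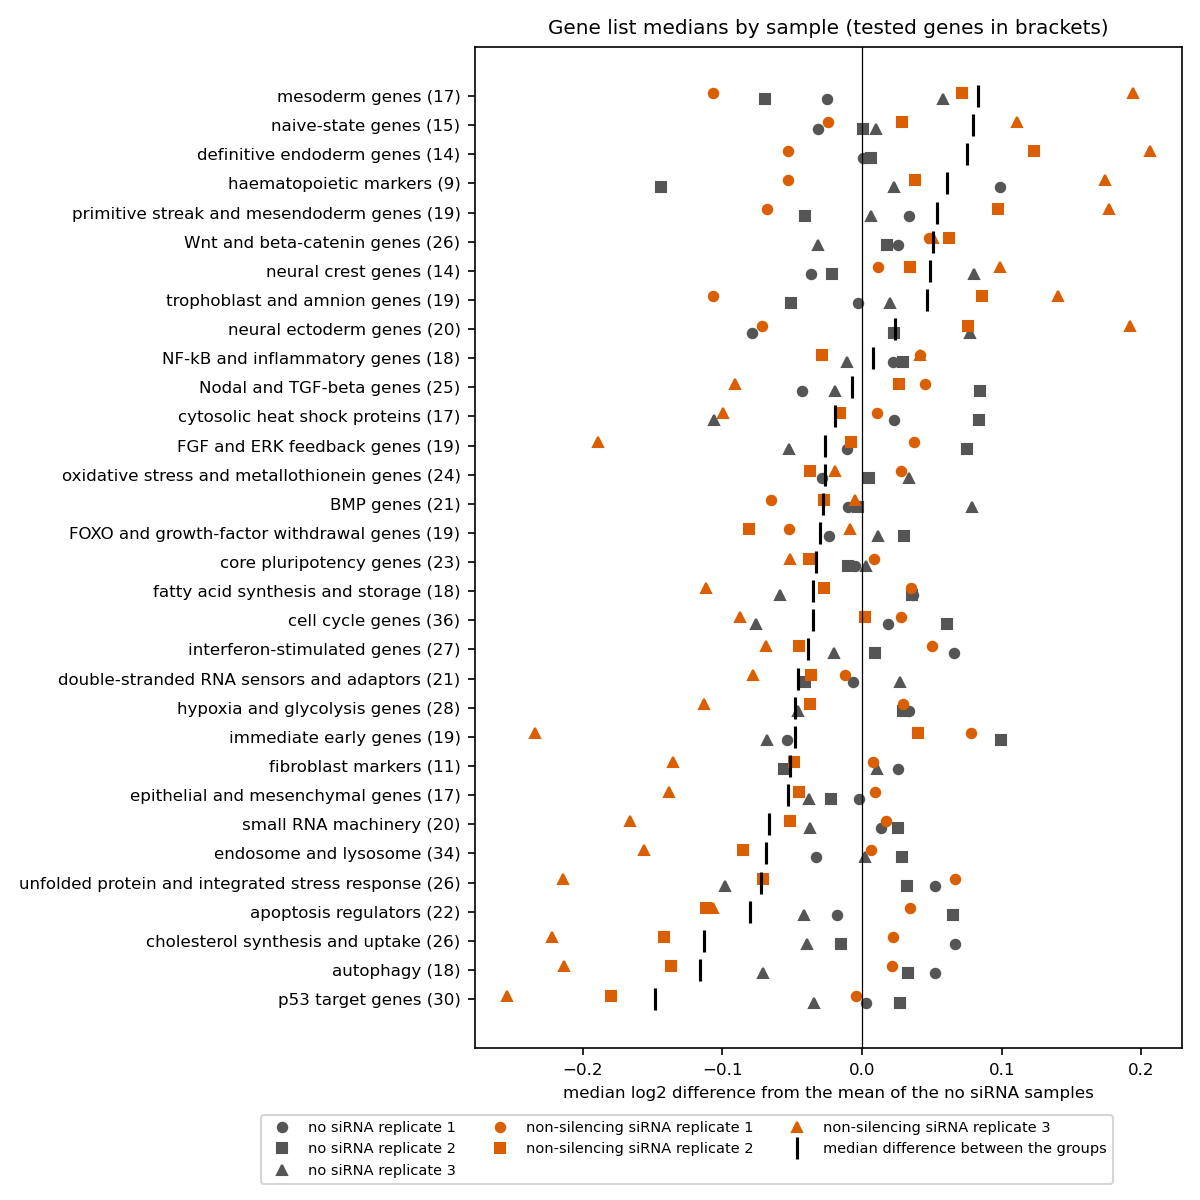
Median log2 difference from the mean of the 3 samples without siRNA (horizontal axis) of the tested genes of 32 lists (rows, number of tested genes in brackets), for each sample without siRNA (grey) and with the non-silencing siRNA (orange), with the difference between the groups as a black bar. Non-silencing replicate 3 lies at one end in most lists, at -0.25 for p53 targets and at 0.19 for mesoderm genes, while in the Wnt list the samples with the non-silencing siRNA lie together at 0.05 to 0.06.

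Stress response lists had medians between -0.07 and -0.02. Of the unfolded protein and integrated stress response genes 6 of 26 lay above 0 (median -0.07, and 0.00 with array spread in the fit), with the chaperone gene HSPA5 at 0.03 (SE 0.09), DDIT3 at 0.10 (SE 0.16) and ATF3 at -0.05 (SE 0.12). Cytosolic heat shock protein genes had 5 of 17 above 0 and a median of -0.02, with HSPA1A at means of 1178 and 1176. HMOX1, the heme oxygenase gene of the oxidative stress response, had 456, 569 and 548 against 610, 615 and 606, with no overlap (0.22, SE 0.10, adjusted p = 0.927). With the siRNA against TCF7L1 it had 482, 459 and 496, within the range without siRNA. It was the only one of 24 oxidative stress and metallothionein genes at an unadjusted limma p under 0.05 (0.753% of all members higher). Of the 24 genes 8 lay above 0, and their median was -0.03. Genes of FOXO factors and growth-factor withdrawal had 8 of 19 above 0 and a median of -0.03. KLHL24 (-0.42) and the repressor gene BCL6 (-0.35, SE 0.15) had an unadjusted limma p under 0.05, both lower (1.32% of all members).

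FOS and EGR1, immediate early genes, varied more within the groups than between them. FOS had 485, 576 and 198 without siRNA, then 586, 535 and 169 with the non-silencing siRNA, then 948, 546 and 243 with the siRNA against TCF7L1. EGR1 had 1077, 1876 and 694, then 1399, 1821 and 802, then 1405, 1423 and 756. In both genes replicate 3 was the lowest of each group. The difference between the controls was -0.02 (SE 0.55) for FOS and 0.18 (SE 0.38) for EGR1, and the interval of FOS, -1.23 to 1.20, left a change of 2-fold in either direction undetectable. Of 19 immediate early genes 5 lay above 0, and the median was -0.05. In 1 the groups did not overlap (FOSL1, higher, as in 2.18% of all members). FGF and ERK feedback genes, a list that shares EGR1, had 8 of 19 above 0 and a median of -0.03.

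POU5F1, SOX2, NANOG, LIN28A and DNMT3B, which define the pluripotent state, differed by at most 0.12 on the log2 scale between the groups. POU5F1 had 5133, 5301 and 5099 without siRNA and 5235, 5002 and 5135 with the non-silencing siRNA (-0.01, SE 0.08). NANOG on chromosome 12 had 1833, 1759 and 1954 against 1781, 1820 and 1933 (0.00, SE 0.10), LIN28A had means of 5624 and 5578, and DNMT3B of 2527 and 2696. SOX2 had 2683, 2752 and 2648 against 2632, 2359 and 2444, just without overlap (-0.12, SE 0.10). Of 23 core pluripotency genes 7 lay above 0, with a median of -0.03 and 1 lower gene at an unadjusted limma p under 0.05 (1.32% of all members). This was DPPA2, a chromatin-binding gene of early embryos, with 205, 190 and 156 against 154, 103 and 115 (-0.52, SE 0.18), and -0.37 with array spread in the fit. Of 15 tested naive-state genes 9 lay above 0, with a median of 0.08 that was -0.04 with array spread in the fit. DNMT3L, a cofactor of DNA methyltransferases, had 0.29 (SE 0.12) and TFAP2C, an AP-2 transcription factor gene, -0.40 (SE 0.16).

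Lineage lists had few members at an unadjusted limma p under 0.05. In the trophoblast and amnion list 14 of 19 genes lay above 0 (median 0.05). Yet the 2 with an unadjusted limma p under 0.05 were lower (1.32% of all members). They were TFAP2C, given above, and GABRP, a GABA receptor subunit gene, with 468, 402 and 418 without siRNA and 385, 245 and 235 with the non-silencing one (-0.58, SE 0.21), and 254, 143 and 189 with the siRNA against TCF7L1. With array spread in the fit the differences were -0.36 for GABRP and -0.23 for TFAP2C. ETS1, of the neural crest list, had 378, 400 and 406 against 342, 304 and 315 (-0.29, SE 0.10), and 428, 371 and 439 with the siRNA against TCF7L1. In that list 9 of 14 genes lay above 0 (median 0.05). Primitive streak and mesendoderm genes had 12 of 19 above 0 (median 0.05), definitive endoderm 10 of 14 (0.08), mesoderm 12 of 17 (0.08) and neural ectoderm 13 of 20 (0.02), with 0 members at an unadjusted limma p under 0.05 in each. The median signals of these 4 lists lay between 114 and 155, and the signal deciles of each list had a median of -0.01. With array spread in the fit the list medians lay between -0.02 and 0.02. SOX17, an endoderm transcription factor gene, had 101, 109 and 116 against 95.7, 138 and 172 (0.25, SE 0.18). EOMES (0.10, SE 0.10), MIXL1 (0.01, SE 0.10) and TBXT (-0.09, SE 0.13) of the primitive streak differed by no more than about their errors.

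Wnt and beta-catenin genes were the list in which the samples with the non-silencing siRNA lay closest together. Their medians were 0.05, 0.06 and 0.05 in replicates 1, 2 and 3, and those of the samples without siRNA 0.03, 0.02 and -0.03. Of 26 tested genes 17 lay above 0, 0 had an unadjusted limma p under 0.05, and the median was 0.05, or 0.02 with array spread in the fit. SP5, a direct Wnt target, had 299, 341 and 379 against 375, 394 and 450, with overlap (0.25, SE 0.12), the feedback inhibitor gene NKD2 had 129, 130 and 120 against 131, 146 and 168 (0.20, SE 0.10), and AXIN2 had 0.07 (SE 0.10). BMP genes had 10 of 21 above 0 and a median of -0.03, with the target gene ID1 at -0.07 (SE 0.14).

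Cell cycle genes had 17 of 36 above 0, a median of -0.04 and 0 members at an unadjusted limma p under 0.05. CDK1, the mitotic kinase gene, was the lowest at -0.27 (SE 0.13), while the cyclin gene CCNB1 had 0.06 (SE 0.09), MKI67 -0.10 (SE 0.09) and PCNA -0.08 (SE 0.10). All 36 intervals lay within 1.5-fold. Hypoxia and glycolysis genes had 7 of 28 above 0 (median -0.05), with LDHA at means of 5089 and 5014. In the epithelial and mesenchymal list 6 of 17 lay above 0 (median -0.05), with CDH1 at -0.06 (SE 0.09) and FN1, the fibronectin gene, at 625, 641 and 624 against 595, 515 and 442 (-0.29, SE 0.12, and -0.16 with array spread in the fit). Markers of other cell types had 0 members at an unadjusted limma p under 0.05. Of 11 tested fibroblast markers 4 lay above 0 (median -0.05), with COL1A1 at 430, 405 and 422 against 436, 404 and 441, and DCN, LUM and FAP were too dim to test. Of 9 tested haematopoietic markers 6 lay above 0 (median 0.06, and -0.08 with array spread in the fit), and PTPRC, MS4A1, HBB and LYZ were among those too dim to test.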

How the data were processed

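Each probe set has 1 deposited intensity signal per array, on a linear scale, which the authors made in Affymetrix Expression Console 1.1.1 by PLIER 2.0, per the submitters' processing notes. The sources used here do not give its background and normalization steps. Signals were turned into log2 after adding 16. Control probe sets (4201 of 33297) were left out, and a probe set was tested when above the 25th percentile of its array on at least 3 arrays. Limma 3.58.1 (R 4.3.3) was fitted to all 9 arrays with 1 mean per group, with two-sided tests and Benjamini-Hochberg adjustment over 22784 probe sets (threshold 0.05). It had 6 residual and 4.89 prior degrees of freedom, and the median SE of a difference was 0.115; the number of arrays limits the precision. The steps were tested on simulated data.

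Symbols were updated through the RefSeq gene table by accession (20246 members), symbol (833) or synonym (508), and 456 were not matched. Of 14545 members with a RefSeq strand, 434 read the opposite strand. Positions of probe sets are on build 37, which 97.4% of 5957 annotated positions overlapped. In lists the probe set of highest mean represented a gene; for NANOG that one lies on chromosome 15, and the one on chromosome 12 is given. Named genes were TCF7L1, LEFTY2, CDKN1A, the 15 of smallest p per direction, the 10 of largest difference per direction among those without overlap, and in each list members with an unadjusted p under 0.05 and the 2 of smallest p. Other list members were named to show the range and roles of a list, some after their values were seen. The members, the 32 lists and the tests were chosen with earlier results of these data known. Alternatives changed the offset, the normalization, the filter, the arrays used, the weights, the variance prior and the covariates. A few genes are not reported here.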

Additional observations from a re-analysis of the deposited data

How the results depend on the processing

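Limma called 0 probe sets under each alternative, with the lowest adjusted p 0.0523 under array weights, 0.3 without non-silencing replicate 1 and 0.817 to 1 otherwise. The count at an unadjusted p under 0.05, 548 as reported, was 840 with no filter, 329 with a filter at the array median, which tests fewer probe sets, 1221 with the replicate block and 5766 with array weights. It was 307 without the 2 arrays of narrowest spread (non-silencing replicate 3 and TCF7L1 siRNA replicate 2), an alternative chosen after seeing the data. Leaving out 1 array gave 175 to 3432, with 175 without non-silencing replicate 2, 195 without replicate 3, 3432 without replicate 1 and 847 without TCF7L1 siRNA replicate 2. The cause was not tested. The difference of TCF7L1, 0.02, ran from -0.0615 (without no siRNA replicate 1) to 0.098 (without no siRNA replicate 2). Of 2228 recomputed differences of named probe sets, 17 changed sign, all in 6 probe sets of TCF7L1, NODAL, POU5F1, LIN28A and NANOG with reported differences of at most 0.05 in size, and 0 passed the adjusted threshold by limma. Of 32 list medians 15 kept their sign in all 21 alternatives, p53 targets between -0.20 and -0.05 among them, and 17 changed sign in at least 1. The labels do not say whether the replicate numbers pair the samples, and the values did not settle it. Between the 2 control groups, r of deviations was 0.01, 0.18 and 0.36 for equal numbers 1, 2 and 3. It ran from -0.40 to 0.29 for unequal numbers, and the block changed no call. With 3 arrays per group the median half-width of an unadjusted 95% interval was 0.25 on the log2 scale, and even the difference of LEFTY2 did not pass after adjustment.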

Other observations

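Across all 3 groups some genes had graded signals. KCNJ2 had means of 65.3 without siRNA, 49.8 with the non-silencing siRNA and 39.9 with the siRNA against TCF7L1, and GABRP had 429, 288 and 195. LEFTY2 ran the other way, with 167, 254 and 305, as did LEFTY1, whose control groups overlap, with 186, 214 and 258. The comparisons of each siRNA with untreated cells use the same untreated samples, and no test of an order over the groups was run.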
